A study of Drosophila melanogaster with 8 samples.

Results

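*Sardh*, *Gnmt*, *Sam-S* and *Ahcy* encode 4 linked enzymes of the methionine cycle and of sarcosine metabolism, and their transcripts were followed in fly heads as 4 of the 17490 genes counted. *Sardh* was picked because it was lower in *Obp56h*-/- females and not in *Obp56h*-/- males, and the other 3 were added to ask whether enzymes next to it in the pathway share this sex pattern. The values that picked *Sardh* are therefore given as a description, with no test. The other 3 were also chosen with earlier results of these data known, which their p-values do not take into account. RNA was sequenced from pooled heads of adult flies in 4 groups, *Obp56h*-/- females, *CSB* females, *Obp56h*-/- males and *CSB* males, with 2 replicates each. *CSB* is the Canton S-B control, and the *Obp56h*-/- flies are 1 line in that background in which CRISPR/Cas9 replaced *Obp56h*, an odorant-binding protein gene, with a *DsRed* cassette driven by an eye-specific promoter. Effects of the deletion and of any other difference between these lines cannot be told apart.

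The methionine cycle supplies the methyl groups of the cell. S-adenosylmethionine synthetase, encoded by *Sam-S*, makes S-adenosylmethionine (SAM) from methionine, methyltransferases pass its methyl group on, and adenosylhomocysteinase, encoded by *Ahcy*, splits the S-adenosylhomocysteine that is left into homocysteine and adenosine. Glycine N-methyltransferase, encoded by *Gnmt*, uses SAM to turn glycine into sarcosine and so takes up surplus methyl groups, and in flies it is known from the fat body. Sarcosine dehydrogenase, encoded by *Sardh*, is a mitochondrial flavoenzyme that turns sarcosine back into glycine and passes the freed carbon to folate.

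All 4 genes are protein-coding and had the same exonic length in the count table as in Ensembl's BDGP6 annotation. *Sardh* (FBgn0034276) lies on the minus strand of chromosome 2R from 17753555 to 17756422, and *Gnmt* (FBgn0038074) on chromosome 3R, plus strand, from 12674608 to 12676084. *Sam-S* (FBgn0005278) lies on chromosome 2L, plus strand, from 106903 to 114432, and *Ahcy* (FBgn0014455) on chromosome X, plus strand, from 15450261 to 15453167. No other annotated gene overlaps *Sardh*, *Sam-S* or *Ahcy*. Exons of *Gnmt* share 75 bp with *CG43630* on the opposite strand, on which between 0 and 5 reads were counted in a library.

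Between 10127941 and 25918919 reads were counted in a library, and 3 reads, the smallest number taken as detected, were between 0.122 and 0.276 CPM (a gene's reads scaled to a common library size). All 4 members were above this in all 8 libraries. *Obp56h* itself had 1, 0, 0 and 0 reads in the *Obp56h*-/- libraries and between 54 and 110 reads in the *CSB* libraries. Replicate 1 of *CSB* males held 396 CPM of the female yolk protein transcript *Yp1*, where the other male libraries held between 4.60 and 11.8 CPM. The deviations of the replicate 1 libraries of *CSB* females and *CSB* males from their group means were alike (Pearson r = 0.53 across genes), so results were also computed without these 2 libraries. Levels are given in TMM-scaled CPM. Differences were tested by edgeR's quasi-likelihood test in one fit of all 8 libraries, with Benjamini-Hochberg adjustment over the 13536 genes that passed a filter on low counts and a threshold of 0.05. All 4 members passed this filter.

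*Gnmt*, which makes sarcosine, fell in *Obp56h*-/- females. It was at 23.1 and 20.4 CPM in *Obp56h*-/- females, against 34.4 and 41.7 CPM in *CSB* females. Both *Obp56h*-/- female libraries lay below both *CSB* female libraries, with means of 21.8 ± 1.91 and 38.1 ± 5.19 CPM (SD, n = 2 each). In bulk heads, fewer cells of a type and less RNA per cell cannot be told apart. The log2 fold change was -0.81 (standard error, SE, 0.17, 95% interval -1.16 to -0.46), which is 1.75-fold lower in *Obp56h*-/- females (edgeR adjusted p = 0.0194's quasi-likelihood test). In this comparison 1.03% of all genes tested passed and 0.436% passed as lower, and *Gnmt* was the 1 of the 3 enzymes added to *Sardh* that did. The female libraries did not overlap for 41.3% of all genes. The call rested on single libraries, and the adjusted p from edgeR was 0.0667 without *Obp56h*-/- female replicate 1, 0.310 without *Obp56h*-/- female replicate 2 and 0.111 without *CSB* female replicate 2, with log2 fold changes of -0.89, -0.70 and -0.68.

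In males *Gnmt* lay on the other side. It was at 70.8 and 91.4 CPM in *Obp56h*-/- males, against 64.1 and 58.9 CPM in *CSB* males. Both *Obp56h*-/- male libraries lay above both *CSB* male libraries. The log2 fold change of 0.40 (SE 0.16, 95% interval 0.06 to 0.74) did not pass (unadjusted p = 0.0234, edgeR adjusted p = 0.482). The male libraries did not overlap for 40.9% of all genes. Here 0.502% of all genes tested passed and 9.15% had an unadjusted p under 0.05. Of the 3 added enzymes 0 passed by edgeR's quasi-likelihood test or its likelihood ratio test, DESeq2 gave an adjusted p for *Sam-S* alone (0.318), and *Gnmt* alone was under 0.05 before adjustment in edgeR. With 1 library left out, the male log2 fold change of *Gnmt* lay between 0.21, without *Obp56h*-/- male replicate 2, and 0.58, without *Obp56h*-/- male replicate 1, and was 0.52 without *CSB* male replicate 1, the library with yolk protein reads. It did not pass in any of these fits, with adjusted p-values between 0.157 and 0.976 from edgeR.

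The difference between these effects was tested as the interaction of genotype and sex. For *Gnmt* the female effect minus the male effect was -1.21 on the log2 scale (SE 0.23, 95% interval -1.70 to -0.72), with an unadjusted p of 6.41e-05 and an adjusted p of 0.0964 from edgeR, so it missed the threshold. By p-value *Gnmt* stood 9 of 13536 genes in this test, in which 0.0369% of genes, 5 in all, passed. Its direction was the same under all 17 alternatives, with values between -1.42 and -1.02. Of these, 9 gave an adjusted p under 0.05, among them DESeq2 (0.00229) and edgeR's likelihood ratio test (0.00270), and the others did not. Both of the named tests passed more genes for the interaction than the main fit did. Without both *CSB* replicate 1 libraries, a fit chosen after seeing the data, the difference was -1.42.

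**Figure D1:**
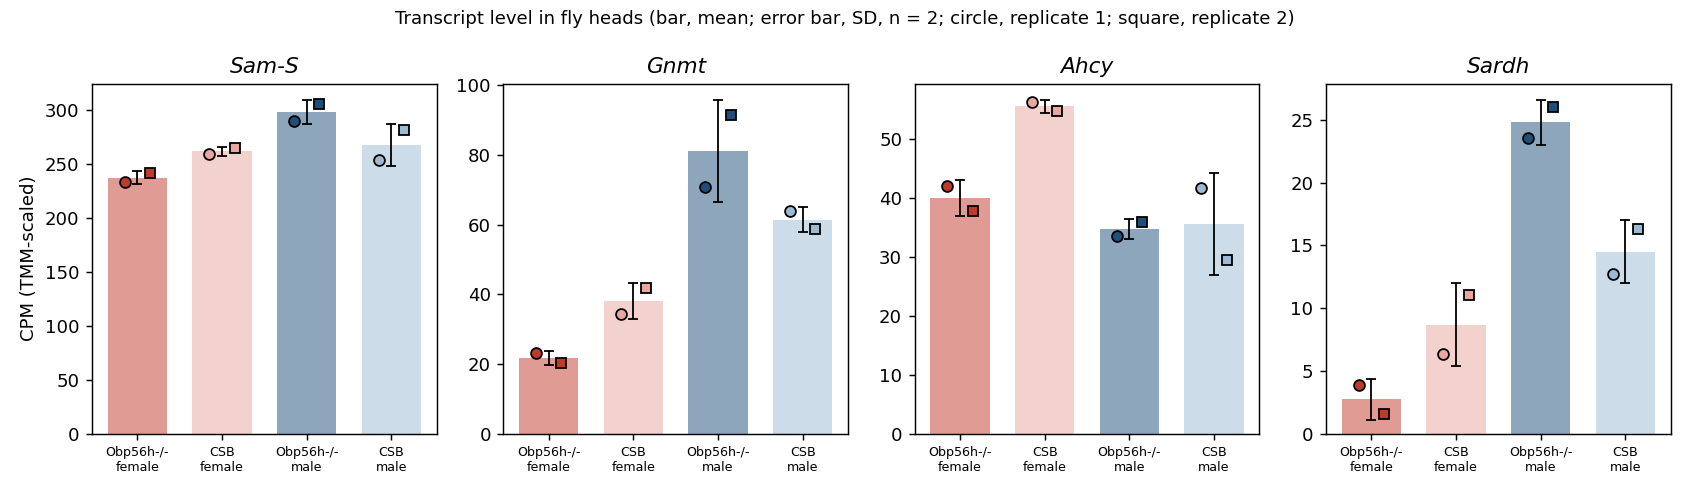
CPM of each member in each library, with the mean (bar) and SD (error bar, n = 2) of each group; circles are replicate 1 and squares replicate 2, and each panel has its own axis from 0. *Gnmt* and *Sardh* are lowest in *Obp56h*-/- females and highest in *Obp56h*-/- males, *Sam-S* spans only 233 to 306 CPM, and *Ahcy* is highest in *CSB* females.

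The sexes also differed in *Gnmt*, which was lower in females. Among *CSB* flies it was at 38.1 ± 5.19 CPM in females and 61.5 ± 3.65 CPM in males (SD, n = 2 each), a log2 fold change of -0.69 (SE 0.16, edgeR adjusted p = 0.0275), in a comparison where 2.9% of genes passed and 0.983% were lower in females. This call was lost without *CSB* female replicate 1 (edgeR adjusted p = 0.282), without *CSB* female replicate 2 (0.0715) and without both *CSB* replicate 1 libraries (0.303). Among *Obp56h*-/- flies *Gnmt* was at 21.8 ± 1.91 CPM in females and 81.1 ± 14.6 CPM in males (SD, n = 2 each), 3.72-fold lower in females (log2 fold change -1.89, SE 0.17, edgeR adjusted p = 1.13e-06). Here 3.19% of genes passed and 0.835% were lower in females, and *Gnmt* passed under all 17 alternatives, with log2 fold changes between -2.13 and -1.75. The order of the group means was thus *Obp56h*-/- males, *CSB* males, *CSB* females and *Obp56h*-/- females, and of the neighbors in this order only the *Obp56h*-/- and *CSB* males were not told apart by the test.

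*Sardh*, which removes sarcosine, had the same order of groups. It had 96 and 29 reads, or 3.92 and 1.61 CPM, in *Obp56h*-/- females, against 69 and 267 reads, or 6.34 and 11.03 CPM, in *CSB* females. In males it was at 23.5 and 26.0 CPM in *Obp56h*-/- flies, against 12.7 and 16.3 CPM in *CSB* flies. All libraries of *Obp56h*-/- females thus lay below all other libraries, and those of *Obp56h*-/- males above all others. The log2 fold change was -1.65 (SE 0.31) in females, 0.77 (SE 0.27) in males and -2.42 (SE 0.41) for their difference, and these are the values on which the gene was picked. The female replicates lay far apart, so that the female log2 fold change was -2.45 without *Obp56h*-/- female replicate 1 and -1.16 without *Obp56h*-/- female replicate 2, which had the 29 reads. Without *CSB* female replicate 2 it was -1.19. Without both *CSB* replicate 1 libraries it was -1.94 in females and 0.63 in males.

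Per kb of exon, which allows levels of different genes to be compared, *Gnmt* transcripts outnumbered those of *Sardh* in all 8 libraries. The ratio of *Gnmt* to *Sardh*, both in CPM per kb, was 16.4 and 35.3 in *Obp56h*-/- females, against 15.1 and 10.5 in *CSB* females. In males it was 8.35 and 9.76 in *Obp56h*-/- flies and 14.0 and 10.05 in *CSB* flies. The highest ratio came from the *Obp56h*-/- female library with 29 reads on *Sardh*.

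*Sam-S*, which makes the SAM that *Gnmt* uses, varied least between groups as a ratio of group means. Per kb of exon its group means were between 66.7 and 83.7 CPM per kb, against 22 to 81.9 for *Gnmt*, 16.4 to 26.2 for *Ahcy* and 1.00 to 9.01 for *Sardh*. It was at 233 and 242 CPM in *Obp56h*-/- females, against 259 and 264 CPM in *CSB* females. In males it was at 290 and 306 CPM in *Obp56h*-/- flies, against 254 and 281 CPM in *CSB* flies. The groups did not overlap within either sex, as for 41.3% of all genes in females and 40.9% in males. The group means had the same order as those of *Gnmt* and *Sardh*, but the differences were small. The log2 fold change was -0.14 in females (SE 0.13, 95% interval -0.42 to 0.14, edgeR adjusted p = 0.712) and 0.15 in males (SE 0.13, 95% interval -0.13 to 0.43, adjusted p = 0.762). The female effect minus the male effect was -0.29 on the log2 scale (95% interval -0.69 to 0.10, unadjusted p = 0.135). This interval ends above the -1.21 found for *Gnmt*. Between the sexes *Sam-S* did not pass either, with log2 fold changes of -0.03 in *CSB* and -0.33 in *Obp56h*-/- flies (females over males, adjusted p = 0.993 and 0.300 from edgeR). In *Obp56h*-/- flies it was -0.56 and passed with GeTMM, which scales counts per kb (adjusted p = 0.0163 from edgeR's likelihood ratio test), and -0.34 without both *CSB* replicate 1 libraries, where it passed as well (edgeR adjusted p = 0.0466).

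*Ahcy*, which clears the S-adenosylhomocysteine that methyltransferases leave, had another pattern. It was at 42.0 and 37.7 CPM in *Obp56h*-/- females, against 56.2 and 54.7 CPM in *CSB* females. These groups did not overlap, as for 41.3% of all genes. The log2 fold change of -0.48 (SE 0.17, 95% interval -0.82 to -0.13) had an unadjusted p of 0.0104 and did not pass (edgeR adjusted p = 0.286). It did pass with each sex fitted on its own (edgeR adjusted p = 0.0262) and without *CSB* male replicate 1 (0.0216) or 2 (0.0258). In males *Ahcy* was at 33.6 and 35.9 CPM in *Obp56h*-/- flies, against 41.6 and 29.5 CPM in *CSB* flies, which overlapped. The male log2 fold change was -0.03 (95% interval -0.38 to 0.32, edgeR adjusted p = 0.971), and the female effect minus the male effect was -0.44 (95% interval -0.94 to 0.05, unadjusted p = 0.0752 from edgeR). This difference was -0.77 without *CSB* male replicate 1 and -0.25 without *CSB* male replicate 2, and did not pass in either fit (adjusted p = 0.107 and 0.899 from edgeR).

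Unlike *Gnmt*, *Ahcy* was higher in females than in males of *CSB*, with 55.4 ± 1.04 and 35.5 ± 8.60 CPM (SD, n = 2 each) and a log2 fold change of 0.64 (SE 0.17, edgeR adjusted p = 0.0446). This call was lost when any library other than *CSB* male replicate 1 was left out, with adjusted p-values between 0.0531 and 0.248 from edgeR. Among *Obp56h*-/- flies the log2 fold change between females and males was 0.20 (edgeR adjusted p = 0.803).

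**Figure D2:**
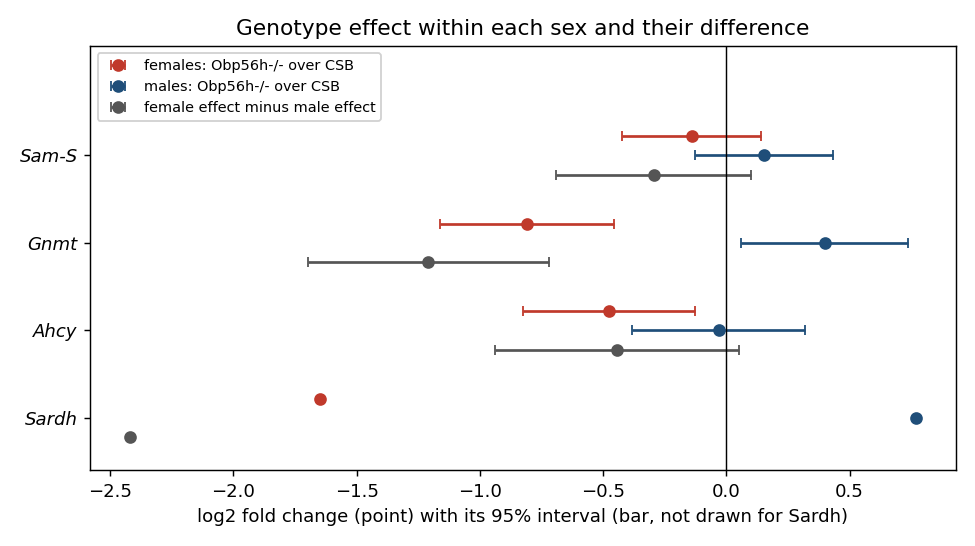
Log2 fold changes of *Obp56h*-/- over *CSB* flies in females (red) and males (blue), and the female effect minus the male effect (grey), with 95% intervals from edgeR's quasi-likelihood fit of 8 libraries; none is drawn for *Sardh*, which was picked on these values. The interval of the difference lies below 0 for *Gnmt* (-1.70 to -0.72) and includes 0 for *Sam-S* and *Ahcy*.

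Set against all genes, opposite directions in the sexes with no overlap of libraries in either sex were uncommon. Both *Obp56h*-/- female libraries below both *CSB* female libraries, with both *Obp56h*-/- male libraries above both *CSB* male libraries, was found for 1.12% of the genes tested, and for *Gnmt* and *Sam-S* of the 3 enzymes added to *Sardh*. It was found for 0 of the 42 pathway genes of the lists that follow, while the reverse order, found for 1.5% of the genes tested, was found for *csul* alone. When an unadjusted p under 0.05 was asked in each sex as well, lower in females and higher in males, 9 of 13536 genes (0.0665%) were left. *Gnmt* was 1 of them, and *Sam-S* and *Ahcy* were not. The 9 include *Sardh*, which was picked on these values.

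Over the 8 libraries, *Gnmt* was 1 of the genes whose log2 CPM was most like that of *Sardh*. Among the 9156 genes whose counts averaged 50 or more, it ranked 4 by Pearson correlation (r = 0.96, Spearman rho 0.98). The others among the first 5 were *CG15096* (r = 0.99), *CG11029* (0.97), *CG16719* (0.97) and *Cyt-b5-r* (0.95), whose log2 fold changes in females lay between -0.99 and -0.27 and did not pass (adjusted p between 0.258 and 0.613 from edgeR). *Sam-S* ranked 73 (r = 0.87) and *Ahcy* 6524 (r = -0.30). These correlations are a description of 8 libraries from 4 groups, which share the sexes, the genotypes and the values that picked *Sardh*.

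**Figure D3:**
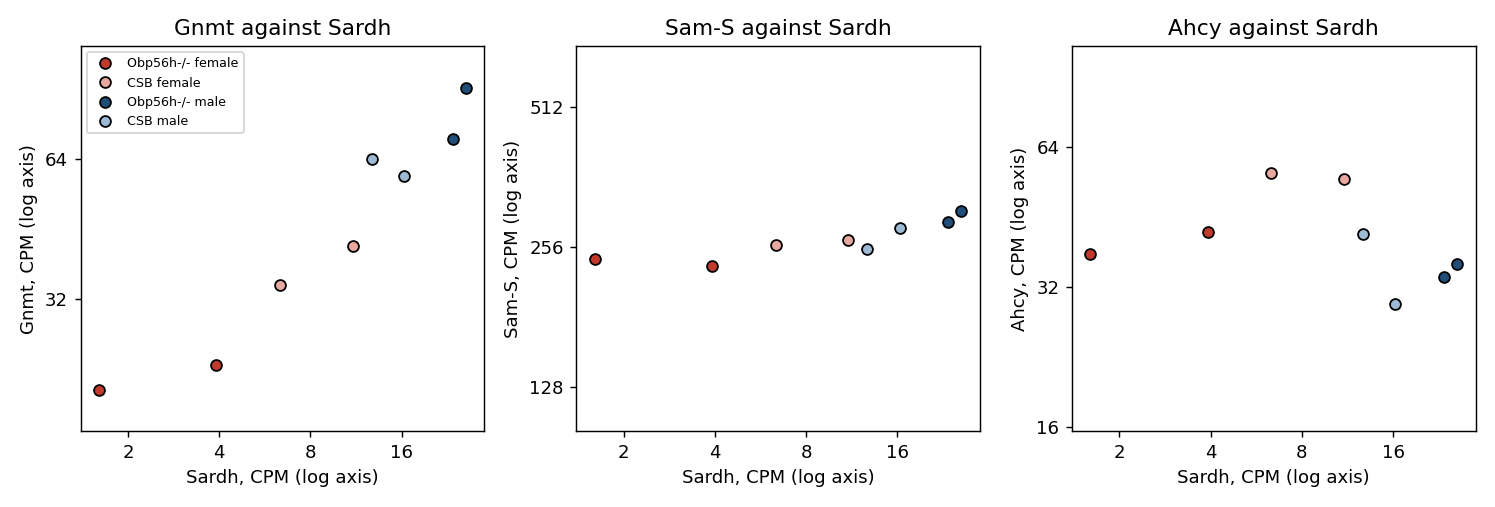
CPM of *Gnmt*, *Sam-S* and *Ahcy* against CPM of *Sardh* in the 8 libraries, both axes on a log scale and all vertical axes of the same log range. *Gnmt* follows *Sardh* from *Obp56h*-/- females to *Obp56h*-/- males (r = 0.96), *Sam-S* changes little along it (r = 0.87) and *Ahcy* does not follow it (r = -0.30).

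Around these 4 enzymes, 42 further genes of the linked pathways were examined, and all 42 passed the filter on low counts. By edgeR's quasi-likelihood test 0 of them passed in females, 1 passed in males, where 0.259% of all genes passed as higher, and 0 passed for the difference between the sexes. Before adjustment 5, 6 and 4 were under 0.05 in these tests, against 10.7%, 9.15% and 3.05% of all genes. The median over the 42 genes was -0.03 on the log2 scale in females, as over all genes tested, and 0.05 in males, against -0.05 over all genes.

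The gene that passed in males was *CG10621*, annotated as a homocysteine S-methyltransferase, which makes methionine from homocysteine. It was at 99.7 and 123 CPM in *Obp56h*-/- males, against 69.6 and 54.3 CPM in *CSB* males, a log2 fold change of 0.84 (SE 0.17, edgeR adjusted p = 0.0231). It was at 148 and 117 CPM in *Obp56h*-/- females, against 87.2 and 90.6 CPM in *CSB* females, a log2 fold change of 0.57 that did not pass (edgeR adjusted p = 0.149). It was thus higher in *Obp56h*-/- libraries in both sexes, unlike *Gnmt*, and its interaction was -0.27 (unadjusted p = 0.261). The male call was lost without *Obp56h*-/- male replicate 2 (edgeR adjusted p = 0.327), with library size as the only scaling (0.0864) and with each sex fitted on its own (0.191). *Bhmt*, the other gene of this kind, had log2 fold changes of 0.13 in females and -0.17 in males.

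The remaining enzymes that use homocysteine or SAM did not pass in either sex. *Cbs* and *Cth*, which turn homocysteine into cysteine, had log2 fold changes of -0.18 and 0.33 in females and 0.00 and 0.26 in males. The adenosylhomocysteinase-like genes *AhcyL1* and *AhcyL2* had 0.35 and -0.21 in females and 0.06 and -0.29 in males. *SamDC*, which draws SAM into polyamine synthesis, had 0.03 in females and -0.04 in males. Of 11 methyltransferase genes that use SAM, 0 had an unadjusted p under 0.05 in females, in males or for the difference. Among all genes 10.7%, 9.15% and 3.05% did, so few or none of 11 would be under 0.05 at these shares.

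Folate carries the carbon that sarcosine dehydrogenase frees. Of 8 folate genes, 0 passed in either sex or for the difference, but all 8 had a female effect below the male effect, with a median difference of -0.50 on the log2 scale against 0.02 over all genes tested. *CG7560*, a methylenetetrahydrofolate reductase gene, *pug*, a C1-tetrahydrofolate synthase gene, and *Nmdmc*, a mitochondrial methylenetetrahydrofolate dehydrogenase gene, had unadjusted p-values of 0.00812, 0.0147 and 0.0385 from edgeR for this difference (adjusted p = 0.9999 each, as for most genes). *CG7560* was at 13.2 and 10.2 CPM in *Obp56h*-/- females, against 16.9 and 13.1 CPM in *CSB* females, and at 12.6 and 12.0 CPM in *Obp56h*-/- males, against 7.85 and 9.48 CPM in *CSB* males. The male groups did not overlap, as for 40.9% of all genes, while the female groups did. *pug* was at 130 and 95.2 CPM in *Obp56h*-/- females, against 131 and 175 CPM in *CSB* females, and at 181 and 196 CPM in *Obp56h*-/- males, against 119 and 185 CPM in *CSB* males. Here the male groups overlapped, and the female groups were separated by less than 2 CPM.

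Glycine is what *Gnmt* uses and *Sardh* gives back. Of 8 genes of glycine cleavage and serine synthesis, 0 passed in either sex, where 1.03% of all genes passed in females and 0.502% in males. For the difference between the sexes 1 had an unadjusted p under 0.05, against 3.05% of all genes. This was *CG6415*, which encodes the folate-binding T protein of glycine cleavage, at -0.11 in females and 0.47 in males on the log2 scale (unadjusted p for the difference 0.0310 from edgeR). *ppl*, which encodes the H protein, had 0.21 in females and 0.15 in males. *wal* and *Etfb*, subunits of the electron transfer flavoprotein that accepts electrons from sarcosine dehydrogenase, had log2 fold changes of 0.20 and -0.06 in females and 0.03 and -0.20 in males, and neither passed.

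**Figure D4:**
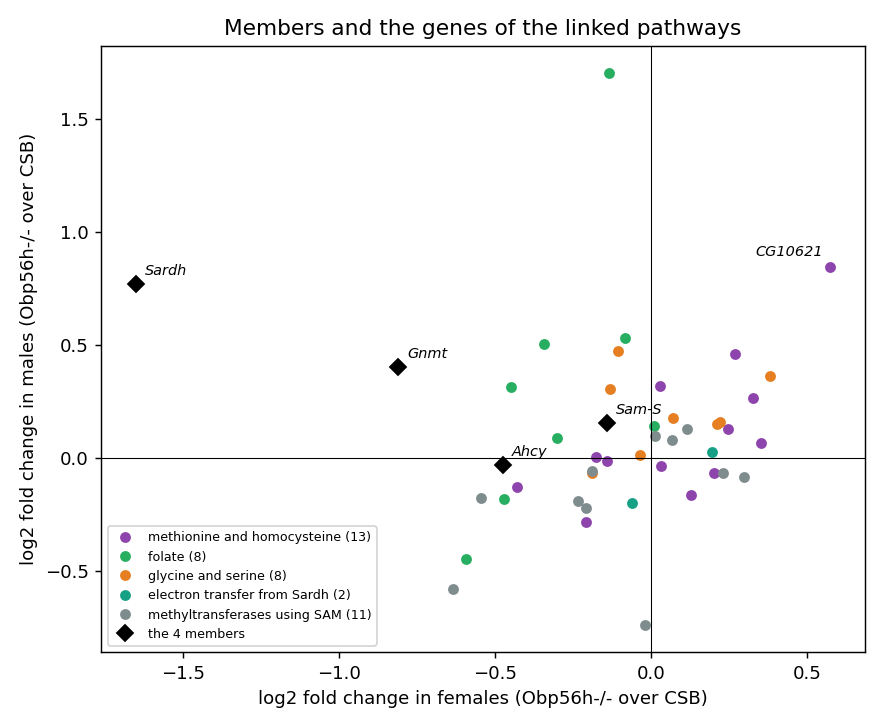
Log2 fold change of *Obp56h*-/- over *CSB* flies in females (horizontal) and males (vertical) for the 4 members (diamonds) and 42 genes of the linked pathways (circles, colored by list, with the number of genes in parentheses). *Sardh* and *Gnmt* lie far to the left and above 0, *CG10621* is the circle at the right edge, and the uppermost folate circle is *Ts*, on which between 1 and 20 reads were counted in a library.

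Between the sexes some of these genes passed, mostly in the direction opposite to *Gnmt*. In *CSB* 4 of the 42 were higher in females, where 1.92% of all genes were, and in *Obp56h*-/- flies 3 were, where 2.36% of all genes were. *Odc1*, which starts polyamine synthesis, was 1 of them in both, with log2 fold changes of 1.67 in *CSB* and 1.37 in *Obp56h*-/- flies (adjusted p = 6.46e-06 and 5.52e-05 from edgeR), and it passed under all 17 alternatives in each. *CG8665*, a formyltetrahydrofolate dehydrogenase gene, was at 1.03 in *CSB* (edgeR adjusted p = 0.00378), and this call was lost without *CSB* female replicate 1 (0.0508) and with GeTMM (0.744). The calls of *CG7560* and of *CG3999*, which encodes the P protein of glycine cleavage, in *CSB* and of *Mtap*, which recycles methylthioadenosine, and *aay*, a phosphoserine phosphatase gene, in *Obp56h*-/- flies were each lost when 1 of at least 4 different libraries was left out, with adjusted p-values of up to 0.707 from edgeR, and with GeTMM, with adjusted p-values between 0.470 and 0.970. *pug* was the 1 gene of the 42 that was lower in females, in *Obp56h*-/- flies (log2 fold change -0.74, edgeR adjusted p = 0.0498), and this call was lost without *Obp56h*-/- female replicate 2 (adjusted p = 0.538), *Obp56h*-/- male replicate 1 (0.0816) or *Obp56h*-/- male replicate 2 (0.162).

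Markers of the fat body, the tissue in which *Gnmt* is known to act, were not lower in *Obp56h*-/- females. The summed level of 10 such genes was 71984 and 62256 CPM in *Obp56h*-/- females, against 63067 and 66219 CPM in *CSB* females. In males it was 13614 and 13756 CPM in *Obp56h*-/- flies, against 14021 and 13084 CPM in *CSB* flies. The sum of *CSB* male replicate 1 held 396, 453 and 595 CPM of *Yp1*, *Yp2* and *Yp3*. In *CSB* male replicate 2 these were at 4.71, 8.75 and 40.5 CPM, so the overlap of the male sums cannot show whether the other markers differ. Of the 10 genes, 3 lay above *CSB* in both *Obp56h*-/- male libraries, among them *apolpp* (means of 10817 and 9741 CPM), and 2 lay below. Among all genes tested, the male libraries did not overlap for 40.9%, so these counts show no difference particular to the fat body genes. The sums include the yolk protein genes and were higher in females, in the direction opposite to *Gnmt*. In females 1 of the 10, *Lsp2*, was higher in *Obp56h*-/- flies (log2 fold change 1.85, edgeR adjusted p = 0.0104) and 0 were lower, where 1.03% of all genes passed. In males 0 of the 10 passed by edgeR's quasi-likelihood test and 5 were under 0.05 before adjustment, against 9.15% of all genes. The yolk protein genes *Yp1*, *Yp2* and *Yp3* were 3 of these 5, and their male groups overlapped. For the difference between the sexes 0 of the 10 passed and 5 were under 0.05 before adjustment, against 3.05% of all genes. Of the 10, 8 were positive, with a median of 0.58 on the log2 scale, opposite in sign to *Gnmt*. *Yp1*, *Yp2* and *Yp3* were 3 of these 5 as well, at 4.73, 4.12 and 2.80, with *Yp1* reads in *CSB* males mostly from replicate 1. Among these 5 was *FASN1*, a fatty acid synthase gene, whose libraries lay above *CSB* in females and below it in males, with a difference of 0.60 on the log2 scale. What part the fat body genes have in the values of *Gnmt* was not tested. Photoreceptor, neuron, glia and muscle markers were present in every library. Of these 20 genes 0 passed for genotype in either sex, where 1.03% of all genes passed in females and 0.502% in males. All 5 neuron and all 5 photoreceptor markers had positive log2 fold changes in both sexes, as had 4 of 5 muscle markers in each sex. The median over all genes tested was -0.03 in females and -0.05 in males. Glia markers were positive for 5 in females and 2 in males. Neuron markers summed to 7310 and 7231 CPM in *Obp56h*-/- males, against 5882 and 5887 CPM in *CSB* males. In females they summed to 6076 and 7103 CPM, against 4965 and 5994 CPM. Libraries did not overlap for 40.9% of all single genes in males and 41.3% in females. Gut markers summed to between 5.63 and 8.78 CPM, ovary markers to between 1.43 and 8.37 CPM and testis markers to between 0.446 and 5.24 CPM in a library. Ovary markers were highest in the replicate 1 libraries of *CSB* females (8.37 CPM) and *CSB* males (4.89 CPM), and testis markers in that of *CSB* females. Without *CSB* female replicate 1 the log2 fold change of *Gnmt* in females was -0.93.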

How the data were processed

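Heads of 8 pools of flies were sequenced after depletion of ribosomal RNA. The authors trimmed and filtered the reads with AfterQC, screened ribosomal RNA with bbduk, aligned with GSNAP to the *D. melanogaster* reference genome, and deposited counts of unique alignments per gene (Subread), without normalization, beside each gene's length. Whether reads were counted by strand is not given in the sources used here. Depth is given as counted reads per library, and with 2 replicates the number of samples limits precision. The labels do not say how the pools of a group were separated, so p-values measure the spread between these samples.

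Genes were filtered with filterByExpr (smallest count 10), scaled by TMM, and tested in R 4.3.3 with edgeR 4.0.16 in one quasi-likelihood fit with 5 contrasts (genotype in females and in males, their difference, and sex in each genotype). Intervals at 95% use the fit's standard errors. The fit was checked on simulated counts, with 200 genes changed between the female groups. It recovered 90% of the 4-fold changes and 62% of the 2-fold changes, and 3.18% of its calls were false. Changes of less than 2-fold were not simulated. Alternatives were a likelihood ratio test, DESeq2 1.42.0, RLE factors, library size alone, other filters, counts per kb (GeTMM), each sex on its own, a replicate block and leaving out libraries. Leaving out both *CSB* replicate 1 libraries was chosen after seeing the data. The text names the 4 members, pathway genes that passed or share a metabolite with a member, the 5 genes most like *Sardh*, and checks of labels and cell types. Members and lists were chosen with earlier results of these data known. Of 43 pathway genes listed, *Etf-QO* was not matched and is not analysed here. No sequences are printed. Plots were drawn with matplotlib 3.10.9.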

Additional observations from a re-analysis of the deposited data

Results flagged for a closer look

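The genes examined were the 4 members, 42 pathway genes and the cell type markers. For 5 of them every *Obp56h*-/- library moved one way from the *CSB* libraries in females and the opposite way in males. The female effect minus the male effect was -2.42 on the log2 scale for *Sardh*, which was picked for this, -1.21 for *Gnmt* (edgeR adjusted p = 0.0964), -0.29 for *Sam-S*, 0.60 for *FASN1*, a fat body marker, and 0.38 for *csul*, an arginine methyltransferase gene (adjusted p = 0.9999 each from edgeR for *Sam-S*, *FASN1* and *csul*). *FASN1* and *csul* lay above *CSB* in females and below it in males. Among all genes tested, 1.12% had the order of *Gnmt* and 1.5% that of *csul* and *FASN1*. Groups of 2 libraries are too small for a test of single libraries.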

How the results depend on the processing

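With 2 replicates per group and 10127941 to 25918919 reads per library, single libraries moved most counts. Genes passing for genotype in females numbered 140, against 288 by the likelihood ratio test, 229 by DESeq2, 91 with library size alone, 416 without a filter, 222 with a replicate block, 338 with each sex on its own and 66 to 529 with 1 library left out. In males 68 passed, against 169 by the likelihood ratio test, 279 without a filter, 128 with the block, 28 with each sex on its own and 48 to 769 with 1 library left out. For the interaction 5 passed, against 30 by the likelihood ratio test, 17 by DESeq2, 2 with library size alone, 70 without a filter, 1 with at least 10 counts in every library, 18 with the block, 13 without both *CSB* replicate 1 libraries and 1 to 214 with 1 library left out. For sex in *CSB* 393 passed, against 594 without a filter, 257 with GeTMM and 148 to 957 with 1 library left out, and for sex in *Obp56h*-/- flies 432, against 878 without both *CSB* replicate 1 libraries and 196 to 949. The cause of these shifts was not tested. With 1 library left out, the fit takes the remaining library of a group to vary like the others. *Gnmt* in females kept its sign in 18 of 18 alternatives and passed in 15, with -0.93 to -0.68 on the log2 scale with 1 library left out. Its interaction also passed by the likelihood ratio test (-1.21), DESeq2 (-1.23), without a filter (-1.22), with GeTMM (-1.30), with the replicate block (-1.19) and without both *CSB* replicate 1 libraries (-1.42), and was -1.37 to -1.02 with 1 library left out. *Ahcy* in females was -0.51 with each sex on its own and -0.54 to -0.38 with 1 library left out. *Ahcy* in males, near 0, took the opposite sign without both *CSB* replicate 1 libraries (0.27) and lay between -0.23 and 0.29 with 1 library left out. For sex, *Ahcy* in *Obp56h*-/- flies was -0.034 with GeTMM, and *Sam-S* in *CSB* was -0.077 to 0.072 with 1 library left out. *Sam-S* did not pass for genotype under any alternative, and for sex in *Obp56h*-/- flies it passed with GeTMM (edgeR adjusted p = 0.0163) and without both *CSB* replicate 1 libraries (0.0466). Replicate numbers did not pair the libraries across all groups, but did so in part within *CSB*. Of the deviations from group means, those of *CSB* females and *CSB* males correlated (r = 0.53), and the other pairs lay between -0.01 and 0.09. The main fit took no account of this link within *CSB*.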

Other observations

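*Gart*, which encodes purine synthesis enzymes, was in none of the lists and is named after its values were seen. It was 1 of the 9 genes that were lower in *Obp56h*-/- females and higher in *Obp56h*-/- males at an unadjusted p under 0.05 in each, with log2 fold changes of -0.54 and 0.43 (adjusted p for the difference 0.432 from edgeR). *MtnD*, a metallothionein gene, *Cyp12d1-p*, a cytochrome P450 gene, and *Lst*, the limostatin gene, were among the 9 as well, with a female log2 fold change of -0.78, -1.27 and -0.59 and a male one of 0.96, 0.74 and 0.37.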
